A study of Mus musculus with 9 samples.

Results

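The 9 genes described here encode enzymes that hand on the methyl group of S-adenosylmethionine (SAM) or return homocysteine to methionine in the mouse liver. They were chosen by the reaction each protein carries out, with earlier results of these data known. *Gnmt*, *Nnmt*, *Pemt* and *Gamt* spend SAM on small molecules or lipids, *Ahcy* clears the product that remains, and *Bhmt*, *Bhmt2*, *Mtr* and *Mthfd1* belong to the steps that rebuild methionine. All 9 were found among the 34866 gene IDs of the deposited table, and all 9 were among the 13193 genes with enough counts to be tested.

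SAM is made from methionine and ATP, mostly in the liver, and is the methyl donor of nearly every methylation reaction in the cell. Once its methyl group has been passed on, S-adenosylhomocysteine is left, which inhibits methyltransferases until it is split into adenosine and homocysteine. Homocysteine is then either remethylated, with betaine or methylfolate as the donor, or drained into cysteine and glutathione by trans-sulfuration.

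Poly(A) RNA was sequenced from liver homogenates of 9 male wild-type C57BL/6J mice, 3 per group, 1 library per mouse. MG mice lived in microgravity on the International Space Station for about 30 days, A1G mice flew alongside them in centrifuged cages at 1 g, and GC mice were housed on the ground in Japan some months afterwards. All were bought at 5 weeks of age from the same supplier and ate the same diet. No gene was altered and no drug was given as a treatment, and isoflurane was the anaesthetic at dissection. MG and A1G mice were dissected on Earth after the return flight, so launch, landing and readaptation are part of both groups, and site, date and a lower CO2 level on the ground cannot be told apart from spaceflight in any comparison with GC. In a homogenate, fewer cells of a type and less RNA per cell cannot be told apart either.

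Library totals ran from 13189515 to 20303599 estimated counts in MG, from 19490377 to 23738049 in A1G and from 17399418 to 23506273 in GC. A1G replicate 1 stood apart within its group, and GC replicate 1 did so to a lesser degree. The squared difference of a gene between 2 libraries was divided by what counting error would give and averaged over genes. This was 83.8 and 82.9 for A1G replicate 1 against the other A1G mice. For GC replicate 1 it was 49.0 and 66.4 against the other GC mice, which gave 24.5 between them. All other pairs within a group lay between 17.4 and 29.4. The label of liver fitted its markers, since the 10 hepatocyte markers summed to 62410–69065 TPM (transcript level scaled to transcript length and library total) in MG, 62357–65295 TPM in A1G and 54007–62287 TPM in GC. In MG versus GC edgeR called 3.33% of all genes tested. Among markers of other cells it called 0 of 10 for Kupffer cells, 0 of 10 for sinusoidal endothelium and 1 of 11 for stellate cells. It called 0 of 6 for cholangiocytes, 0 of 5 for erythroid cells, 0 of 2 for lymphocytes and 1 of 2 for pancreas and gut. Of hepatocyte markers 1 of 10 was called, and each of these 3 calls was lower in MG. An unadjusted p under 0.05 was reached by 18.5% of all genes. It was reached by 3 of 6 cholangiocyte and 3 of 5 erythroid markers, all lower in MG (median log2 fold change -0.96 and -0.70). Of 10 endothelial markers 2 reached it, both higher, and 9 were positive. In A1G versus GC edgeR called 1 of 2 for pancreas and gut, lower in A1G, and 0.644% of all genes. Over all genes, the edgeR quasi-likelihood test called 155 genes higher and 284 lower in MG versus GC, 23 and 62 in A1G versus GC and 7 and 3 in MG versus A1G, at a Benjamini-Hochberg adjusted p under 0.05. The direction of these calls depends on scaling. With libraries scaled by their totals only, 350 were higher and 192 lower in MG versus GC and 48 and 25 in A1G versus GC, and log2 of TPM plus 1 in limma gave 524 and 121, and 54 and 26.

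Transcript levels of the 9 enzymes spanned 3 orders of magnitude. Averaged over the 9 libraries, *Bhmt* was highest at 3304 TPM (range 878–4946) and ranked 44 among all genes. *Gnmt* followed at 2156 TPM (1520–2899) and *Ahcy* at 1677 TPM (1266–2164), and these upper 3 could be ordered in nearly every mouse. *Bhmt* exceeded *Gnmt* in 8 of 9 libraries and *Gnmt* exceeded *Ahcy* in 9 of 9. *Pemt* came next at 336 TPM (291–361), apart from its neighbours on either side in all 9 libraries. *Gamt* at 160.0 TPM (90.5–222) and *Nnmt* at 150 TPM (84.2–256) could not be ranked, since *Gamt* was the higher in 5 of 9 libraries. *Bhmt2* averaged 119 TPM (91.7–137) and *Mthfd1* 96.2 TPM (78.0–103), in that order in 8 of 9 libraries. *Mtr* was far below the rest at 2.21 TPM (1.33–2.96), rank 9780. It still had 143–343 estimated counts per library, well above the filter of 10 counts. Mean TPM of *Bhmt* was 1492 times that of *Mtr* and 27.8 times that of *Bhmt2*. Together the 9 genes took 0.844%, 1.04% and 0.994% of all TPM in the 3 MG mice, 0.437%, 0.859% and 0.710% in the A1G mice, and in GC 0.749%, 0.857% and 0.708%, with A1G replicate 1 the lowest of the 9 mice.

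**Figure D1:**
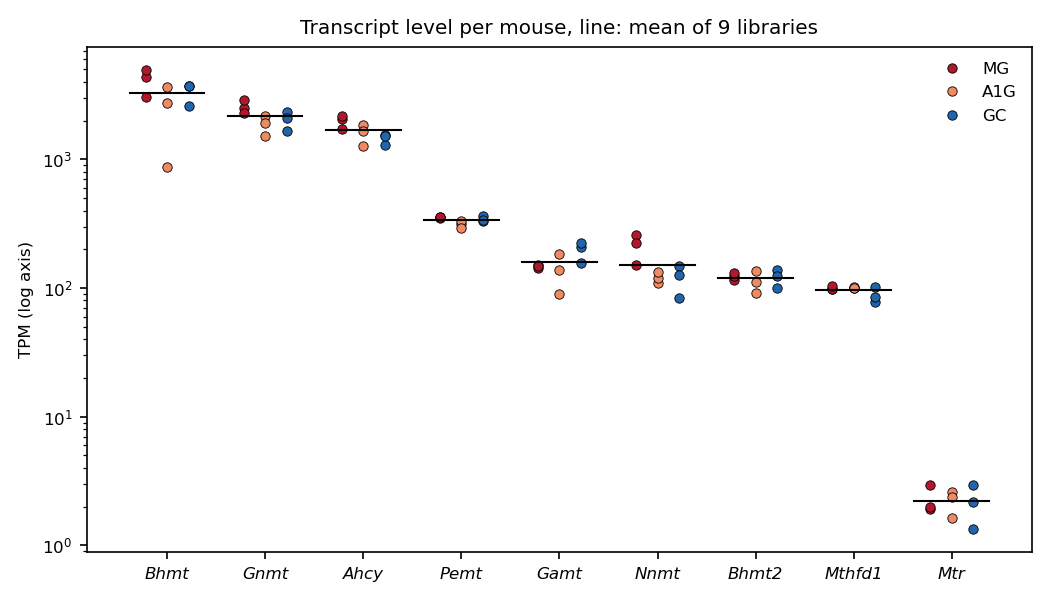
TPM of each enzyme in each of the 9 mice on a log axis, genes ordered by the mean of all libraries (black line), points coloured by group. *Bhmt*, *Gnmt* and *Ahcy* have at least 878 TPM in every mouse, whereas *Mtr* has at most 2.96 TPM.

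The promoters of the remethylating genes are shown because *Bhmt* and *Bhmt2* are neighbours of the same family with very different levels. *Mtr* is shown because it also turns homocysteine into methionine, with another methyl donor, and had the lowest level. All 3 lie on the minus strand of chromosome 13 (GRCm38, GENCODE M21). *Bhmt* (ENSMUSG00000074768) spans chr13:93616675-93637961 and *Bhmt2* (ENSMUSG00000042118) chr13:93655720-93674302, with 17758 bases between them, and *Mtr* (ENSMUSG00000021311) spans chr13:12182712-12258113. On the other side of *Bhmt2*, at 130 bases and on the plus strand, begins *Dmgdh* (ENSMUSG00000042102, chr13:93674433-93752833), so that the window of *Bhmt2* is shared by both genes and includes the start of *Dmgdh*. Sequences of the 250 bases before the RefSeq start (GRCm38.p6) are given 5′ to 3′ on the strand of the named gene, with CG dinucleotides in capitals. For *Bhmt* only the first 47 bases of that window are shown, as the other 203 lie within the GENCODE gene.
Bhmt, chr13:93637962-93638008, minus strand: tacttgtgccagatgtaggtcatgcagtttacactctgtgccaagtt
Bhmt2, chr13:93674303-93674552, minus strand: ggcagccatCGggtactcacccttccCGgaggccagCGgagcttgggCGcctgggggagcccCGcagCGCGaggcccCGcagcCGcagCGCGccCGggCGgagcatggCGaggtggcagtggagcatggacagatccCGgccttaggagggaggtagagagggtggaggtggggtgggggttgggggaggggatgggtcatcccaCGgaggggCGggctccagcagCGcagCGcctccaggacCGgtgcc
Mtr, chr13:12258114-12258363, minus strand: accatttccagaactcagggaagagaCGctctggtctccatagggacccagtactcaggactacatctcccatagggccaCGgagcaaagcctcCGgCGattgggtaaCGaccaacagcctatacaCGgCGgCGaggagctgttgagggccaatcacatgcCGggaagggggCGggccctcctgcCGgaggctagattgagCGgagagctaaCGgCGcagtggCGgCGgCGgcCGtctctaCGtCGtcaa

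The whole *Bhmt* window of 250 bases holds 5 CG dinucleotides, none of them in the stretch shown, and those of *Bhmt2* and *Mtr* hold 20 each, against a median of 6 over 32851 promoter windows of the same length. Of the other members with an entry, *Mthfd1* has 15, *Gamt* 12, *Ahcy* 9, *Gnmt* 6 and the 2 starts of *Pemt* 1 and 2. The letters AGGTCA, searched on both strands and chosen after the sequences had been seen, occur 3 times in the whole *Bhmt* window. Only 1 of these is in the stretch shown, before the GENCODE gene. They occur 1 time each in the windows of *Gnmt*, *Ahcy* and *Mthfd1*, and 0 times in the others. Of all windows 14.0% hold at least 1 match and 1.3% at least 2. These counts describe letters only, and nothing was measured on binding or methylation. For 8 of 9 members a promoter was matched by symbol.

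None of the 9 genes passed the test in any comparison. In MG versus GC edgeR called 0 of 9, against 3.33% of all genes tested, in A1G versus GC 0 of 9 against 0.644%, in MG versus A1G 0 of 9 against 0.0758%, and in the test for any difference among the 3 groups 0 of 9 against 2.46%. At an unadjusted p under 0.05, 2 of 9 passed in MG versus GC (18.5% of all genes), 4 of 9 in A1G versus GC (14.2%), 3 of 9 in MG versus A1G (8.97%) and 4 of 9 in the test over 3 groups (17.1%). DESeq2 on the 6 libraries of a comparison called 1 member each time, *Gamt* in MG versus GC (6.76% of all genes called) and in A1G versus GC (2.58%), and *Nnmt* in MG versus A1G (1.35%). In the test over 3 groups DESeq2 on 9 libraries called *Gamt* and *Nnmt* (6.72%), while limma on log2 TPM called 0 members in each comparison. With 9 genes, these counts do not set the members apart from the background. The median log2 fold change of the members was -0.06 in MG versus GC, -0.37 in A1G versus GC and 0.20 in MG versus A1G, while that of all genes tested was 0.00, 0.00 and -0.01. The 10 hepatocyte markers had medians of the same sign, -0.09 in MG versus GC, -0.28 in A1G versus GC (5 of 10 lower at an unadjusted p under 0.05, 2 of 10 with a positive value) and 0.15 in MG versus A1G (9 of 10 with a positive value), and their part in the member values was not tested. On log2 of TPM plus 1 the median of all genes moved to 0.24 in both comparisons with GC, and relative to that median every member kept the sign of its edgeR value except *Mtr* in A1G versus GC and MG versus A1G. Groups did not overlap in CPM for 3 of 9 members in MG versus GC (22.7% of all genes), 1 of 9 in A1G versus GC (19.4%) and 3 of 9 in MG versus A1G (15.4%).

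**Figure D2:**
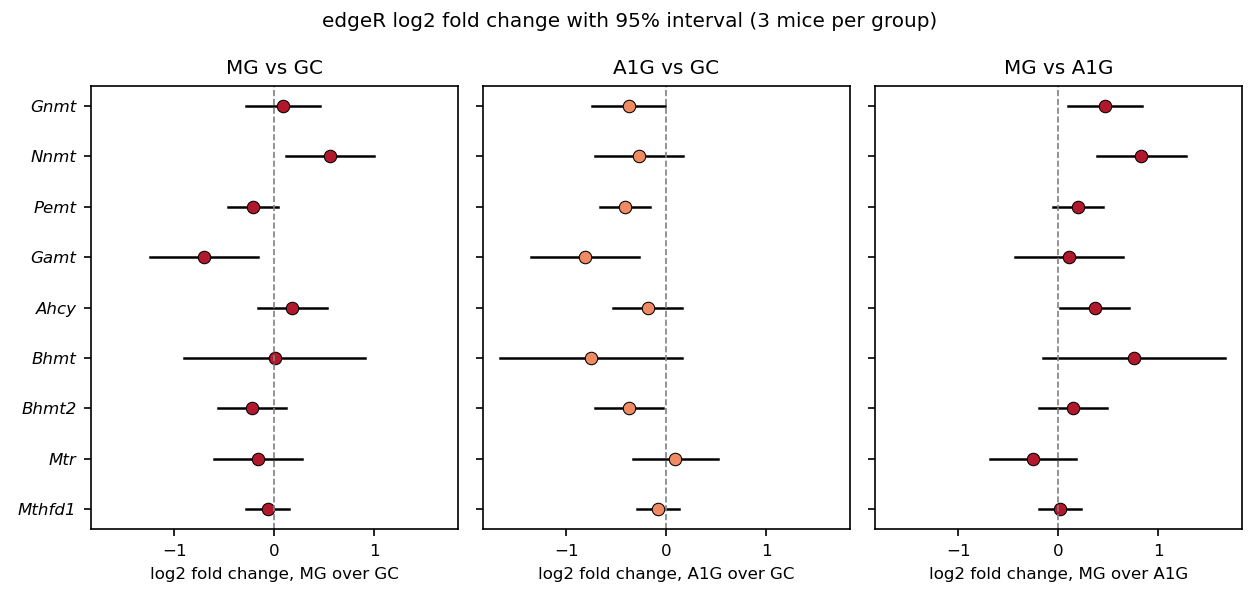
Log2 fold change of each enzyme in the 3 comparisons (edgeR, 3 mice per group), with the 95% interval as a line and no change as a dashed line. In each comparison the *Bhmt* interval is the widest of the 9 and the *Mthfd1* interval the narrowest. They run from -1.66 to 0.16 for *Bhmt* in A1G versus GC and from -0.28 to 0.15 for *Mthfd1* in MG versus GC.

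Among the enzymes that spend SAM, *Nnmt* showed the largest difference between the flown groups. It methylates nicotinamide, which commits that vitamin to excretion instead of NAD synthesis (ENSMUSG00000032271, chr9:48591877-48605153, minus strand). In MG mice it had 88.7, 157 and 133 CPM (counts scaled to the TMM-corrected library total), in A1G mice 62.2, 74.2 and 76.3 CPM and in GC mice 69.8, 105 and 81.2 CPM. All MG mice lay above all A1G mice, but MG replicate 1 lay within the GC range. The mean was 126 ± 34.6 CPM in MG, 70.9 ± 7.61 CPM in A1G and 85.5 ± 18.1 CPM in GC (SD, n = 3). The fold of MG over A1G was 1.78, with a 95% interval of 1.31 to 2.42 and a log2 fold change of 0.83 ± 0.20 (SE), and it missed the threshold in edgeR (adjusted p = 0.185), where DESeq2 on 6 libraries gave an adjusted p of 0.00351. Over its 22 alternatives this adjusted p ran from 0.00351 to 0.632. MG over GC gave a log2 fold change of 0.56 ± 0.20 (edgeR adjusted p = 0.164) and A1G over GC -0.27 ± 0.20 (0.579). The sign of the last value turned when TPM were used, on which the median of all genes also moved up, by 0.24.

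Among the genes whose pattern over the 9 libraries was nearest to *Nnmt* were *Errfi1* and *Smim13*. *Errfi1* encodes an inhibitor of the epidermal growth factor receptor. The root mean square difference of centred log2 CPM from *Nnmt* was 0.22 for *Errfi1* and *Smim13*, out of 10357 genes that averaged 50 counts or more, where *Nnmt* itself varied by 0.42. *Errfi1* had 1120, 1177 and 1211 CPM in MG, 441, 634 and 682 CPM in A1G and 575, 881 and 743 CPM in GC. These genes were picked for their likeness and carry no test.

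*Gamt* makes creatine from guanidinoacetate, a major use of methyl groups in the liver (ENSMUSG00000020150, chr10:80258151-80261012, minus strand). It had 82.4, 90.0 and 86.7 CPM in MG, 51.2, 111 and 79.3 CPM in A1G and 169, 154 and 99.1 CPM in GC. Every MG mouse lay below every GC mouse, also on the TPM scale, and the A1G mice overlapped GC through A1G replicate 2. The MG mice were close together and the other groups wide, with means of 86.4 ± 3.81 CPM in MG, 80.4 ± 29.7 CPM in A1G and 141 ± 36.9 CPM in GC (SD, n = 3). MG over GC was 0.613-fold (95% interval 0.422 to 0.892), a log2 fold change of -0.71 ± 0.25 (edgeR adjusted p = 0.154, and 0.00278 to 0.438 over the 22 alternatives). A1G over GC was -0.81 ± 0.25 (edgeR adjusted p = 0.177, and 0.0141 to 0.478). MG over A1G was 0.10 ± 0.25 (adjusted p = 0.956), a fold with a 95% interval of 0.739 to 1.56, and it turned to -0.14 without A1G replicate 1.

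*Pemt* turns phosphatidylethanolamine into phosphatidylcholine with 3 SAM per lipid, a route largely confined to the liver (ENSMUSG00000000301, chr11:59970614-60046489, minus strand). It had 210.2, 209.7 and 208 CPM in MG, 176, 204 and 169 CPM in A1G and 265, 249 and 214 CPM in GC. The groups did not overlap in any of the 3 comparisons in CPM, with MG below GC and A1G below both. On the TPM scale MG and GC did overlap, at 347–358 TPM in MG and 334–361 TPM in GC, while A1G had 291–334 TPM, below both. A1G over GC gave a log2 fold change of -0.41 ± 0.11, or 0.753-fold (95% interval 0.633 to 0.896), which missed the threshold in edgeR (adjusted p = 0.150) and passed in DESeq2 on 9 libraries (0.0340). MG over GC was -0.21 ± 0.11 (edgeR adjusted p = 0.351) and MG over A1G 0.20 ± 0.11 (0.697). MG over GC took the other sign on TPM, at 0.04.

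*Gnmt* methylates glycine to sarcosine and is regarded as the liver's overflow valve for SAM (ENSMUSG00000002769, chr17:46725664-46729168, minus strand). It had 1543, 1848 and 1436 CPM in MG, 908, 1411 and 1172 CPM in A1G and 1406, 1713 and 1412 CPM in GC. All MG mice lay above all A1G mice, though MG replicate 3 and A1G replicate 2 nearly met, and MG and GC overlapped. The log2 fold change was 0.47 ± 0.17 for MG over A1G (edgeR adjusted p = 0.394), -0.38 ± 0.17 for A1G over GC (0.343) and 0.09 ± 0.17 for MG over GC (0.825). For MG over GC the 95% interval of the fold was 0.825 to 1.38.

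**Figure D3:**
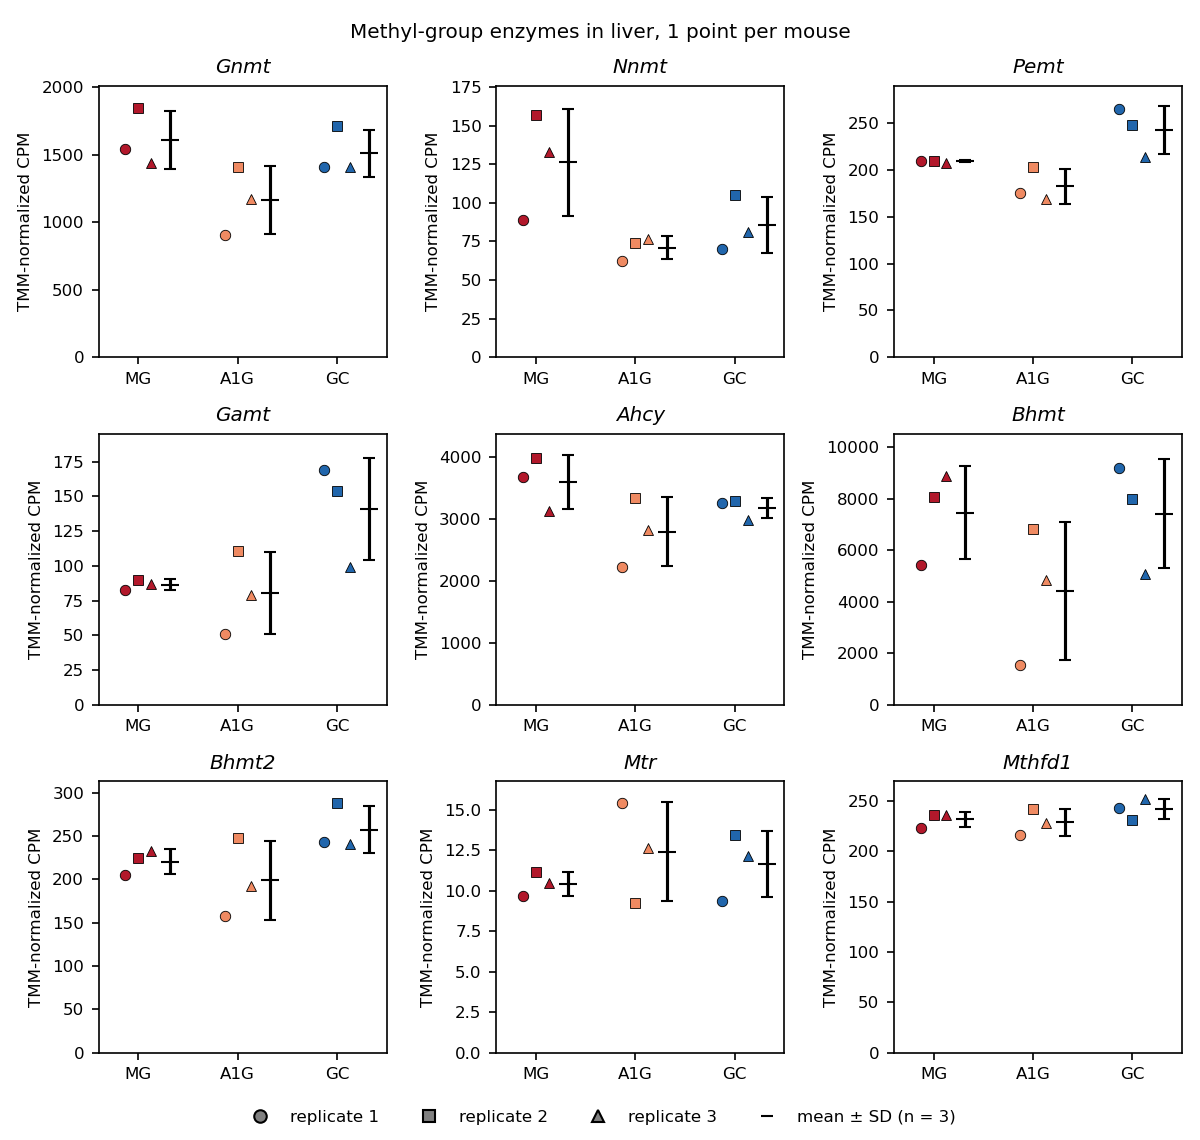
TMM-normalized CPM of the 9 enzymes, 1 point per mouse with replicate numbers as shapes, beside the mean and SD of each group (n = 3). *Nnmt* and *Gnmt* are higher in all MG mice than in all A1G mice, and A1G replicate 1 is the lowest A1G mouse in 7 of the 9 panels.

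The ratio of *Gnmt* to *Nnmt* within a library does not depend on how libraries are scaled. It was 16.4, 11.3 and 10.3 in MG, 13.8, 18.2 and 14.4 in A1G and 19.7, 15.6 and 16.6 in GC, on TPM. The groups overlapped, and the log2 ratio was lower by 0.47 in MG than in GC (3.64 ± 0.36 in MG and 4.11 ± 0.17 in GC, SD, n = 3, exact two-sided permutation p = 0.2). MG minus A1G was -0.31 (exact p = 0.3) and A1G minus GC -0.16 (exact p = 0.4). With 3 mice against 3 the smallest p this test allows is 0.1, and over the 6 ratio tests made here the Benjamini-Hochberg adjusted p of these 3 is 0.6.

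*Ahcy* splits S-adenosylhomocysteine, the step that frees methyltransferases from their product and yields homocysteine (ENSMUSG00000027597, chr2:155059310-155074497, minus strand). It had 3681, 3987 and 3129 CPM in MG, 2219, 3339 and 2820 CPM in A1G and 3254, 3284 and 2980 CPM in GC. Each pair of groups overlapped in CPM, and on TPM the MG mice (1726–2164) lay above the GC mice (1302–1544). The log2 fold change was 0.18 ± 0.16 for MG over GC (edgeR adjusted p = 0.586), -0.18 ± 0.16 for A1G over GC (0.634) and 0.37 ± 0.16 for MG over A1G (0.519), and A1G over GC was 0.12 on TPM. Reads of *Ahcy* could be shared with *Gm4737*, a gene 99.7% identical to it over 2083 bases, and with the pseudogene *Gm9826*. Those had a mean of 31.9 and 19.6 counts, beside 62571 for *Ahcy*.

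*Bhmt* remethylates homocysteine with betaine, a choline product, and is made mainly in liver and kidney. It had 5439, 8072 and 8894 CPM in MG, 1534, 6838 and 4842 CPM in A1G and 9202, 7982 and 5099 CPM in GC. All groups overlapped, and A1G replicate 1 stood below the other 8 mice, the next lowest of which had 3.16 times its level. The means were 7469 ± 1805 CPM in MG, 4405 ± 2679 CPM in A1G and 7428 ± 2107 CPM in GC (SD, n = 3). MG over GC was 1.01-fold with a 95% interval of 0.537 to 1.88 (edgeR adjusted p = 0.996), a wide interval that leaves a sizeable difference in either direction possible. A1G over GC was -0.75 ± 0.42 on the log2 scale (adjusted p = 0.438) and MG over A1G 0.76 ± 0.42 (0.665). Without A1G replicate 1 these values were -0.34 and 0.35, and without A1G replicate 2 they were -1.21 and 1.23. The spread between mice of a group was 0.73 (SD of log2 CPM), larger than that of 93.5% of all genes tested, whose median was 0.23. *Gm5096*, 99.4% identical over 1869 bases, and *Bhmt-ps1* had a mean of 40.1 and 7.8 counts, against 124529 for *Bhmt*.

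*Bhmt2* lies beside *Bhmt* and encodes a related enzyme that prefers S-methylmethionine to betaine as methyl donor. It had 205, 224 and 232 CPM in MG, 157, 248 and 193 CPM in A1G and 243, 289 and 240 CPM in GC. MG mice lay below GC mice in CPM and overlapped them on TPM. The log2 fold change was -0.22 ± 0.15 for MG over GC (edgeR adjusted p = 0.486), -0.37 ± 0.15 for A1G over GC (0.310) and 0.15 ± 0.15 for MG over A1G (0.854), and MG over GC was 0.04 on TPM. The lowest A1G mouse was replicate 1, as for *Bhmt*, but at 157 against 193 CPM in the next, a far smaller gap.

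*Mtr* encodes methionine synthase, the cobalamin-dependent enzyme that takes the methyl group from methyltetrahydrofolate. It had 9.65, 11.1 and 10.5 CPM in MG, 15.4, 9.25 and 12.6 CPM in A1G and 9.38, 13.4 and 12.2 CPM in GC. All groups overlapped, and A1G replicate 1, the lowest mouse for *Bhmt*, was the highest for *Mtr*. The log2 fold change was -0.16 ± 0.20 for MG over GC (edgeR adjusted p = 0.727), 0.09 ± 0.20 for A1G over GC (0.872) and -0.25 ± 0.20 for MG over A1G (0.792). MG over GC and MG over A1G took the other sign on TPM, at 0.08 and 0.03. The 95% interval of MG over GC ran from 0.662 to 1.21-fold.

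The ratio of *Bhmt* to *Mtr*, the betaine route over the folate route at the transcript level, was 1577, 1480 and 2507 in MG, 338, 2267 and 1148 in A1G and 2803, 1725 and 883 in GC, on TPM. All groups overlapped. The log2 ratio averaged 10.82 ± 0.42 in MG, 9.90 ± 1.39 in A1G and 10.66 ± 0.84 in GC (SD, n = 3). The exact permutation p was 1.0 for MG versus GC, 0.6 for A1G versus GC and 0.4 for MG versus A1G (adjusted 1.0, 0.72 and 0.6). A1G minus GC was -0.76, and -0.01 without A1G replicate 1.

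*Mthfd1* encodes the trifunctional cytosolic enzyme that interconverts the one-carbon forms of tetrahydrofolate upstream of methylfolate (ENSMUSG00000021048, chr12:76255298-76319803, plus strand). It had 223, 236.4 and 235.9 CPM in MG, 216, 242 and 228 CPM in A1G and 243, 231 and 252 CPM in GC. All groups overlapped. In CPM it was the steadiest of the 9, with a spread between mice of 0.07 (SD of log2 CPM), and 1.43% of all genes tested had a lower one. On TPM the GC mice ranged from 78.0 to 102. Its 95% intervals were 0.825 to 1.11-fold for MG over GC, 0.815 to 1.10 for A1G over GC and 0.874 to 1.17 for MG over A1G. With TMM scaling these leave room only for small differences (edgeR adjusted p = 0.789, 0.749 and 0.986). On log2 of TPM plus 1 the log2 fold change of *Mthfd1* was 0.19 in both comparisons with GC, where the median of all genes was 0.24. That lies above the upper limits in edgeR, 0.15 for MG over GC and 0.13 for A1G over GC on the log2 scale.

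A1G replicate 1 was the lowest A1G mouse for 7 of 9 members (all but *Pemt* and *Mtr*), where it was the lowest for 37.2% of all genes tested and the highest for 37.0%. In the other groups, MG replicate 1 was the lowest MG mouse for 6 of 9 members and GC replicate 3 the lowest GC mouse for 5 of 9. For those mice the share over all genes was not counted. What sets A1G replicate 1, and to a lesser degree GC replicate 1, apart over all genes was not tested.

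**Figure D4:**
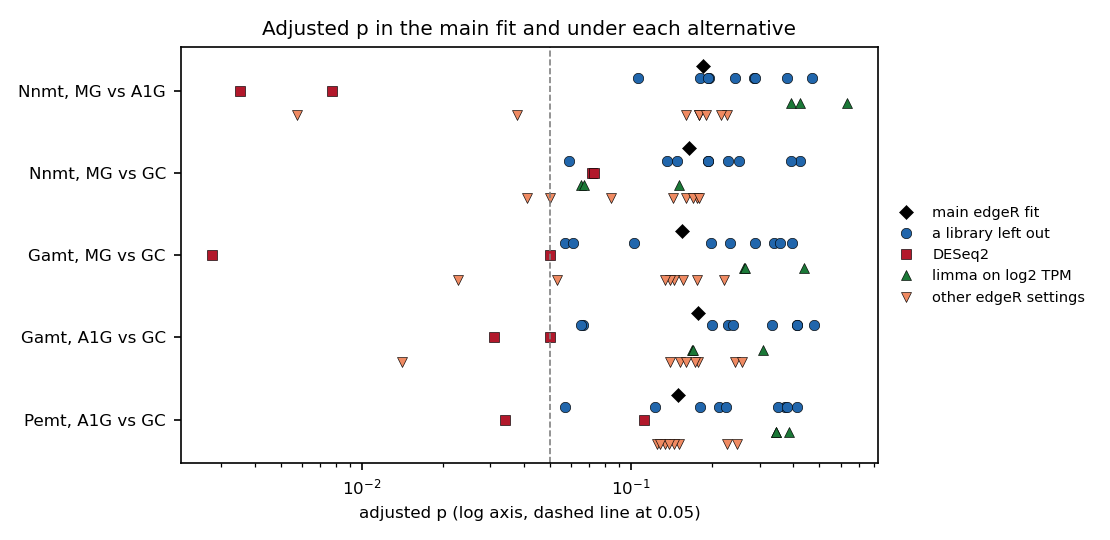
Adjusted p on a log axis for 5 member comparisons, in the main edgeR fit, with each library left out in turn, in DESeq2, in limma on log2 TPM and in the other edgeR settings, with 0.05 as a dashed line. The main fit gives 0.150 to 0.185 in all 5, leaving out any single library stays above 0.05, and the points under 0.05 are DESeq2 fits, edgeR fits without the filter on low counts or edgeR fits with replicate number as a block.

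The genes that feed and drain this cycle were read from 7 lists, and edgeR called list members in MG versus GC only. Of all genes tested, edgeR called 3.33% in MG versus GC, 0.644% in A1G versus GC and 0.0758% in MG versus A1G. An unadjusted p under 0.05 was reached by 18.5%, 14.2% and 8.97%. These shares are the background to the list counts below. Of 11 genes for SAM supply and the removal of its products, 1 rose and 0 fell in MG versus GC, and none passed in A1G versus GC (2 at an unadjusted p under 0.05, both lower) or MG versus A1G (1, higher). The gene is *Mat1a*, the liver's SAM synthetase, with 4415, 4754 and 4494.5 CPM in MG, 3097, 3049 and 2612 CPM in A1G and 3244, 3394 and 3068 CPM in GC. All MG mice lay above the other 6. Its log2 fold change was 0.49 ± 0.12 for MG over GC (edgeR adjusted p = 0.0431) and 0.64 ± 0.12 for MG over A1G (0.0648, which missed the threshold), and the test over 3 groups gave 0.0255. The MG over GC call was kept only without A1G replicate 1 or A1G replicate 3 among the 9 fits that left out a library (adjusted p up to 0.160, without MG replicate 2). It was also lost with upper quartile scaling (0.0588), without the filter on low counts (0.0501) and with at least 10 counts in every library (0.0528). *Adk*, which removes the adenosine that *Ahcy* frees, had -0.48 ± 0.13 in A1G over GC (adjusted p = 0.139), *Mat2b*, a regulatory subunit of the other SAM synthetase, -0.30 ± 0.13 (0.348), and *Sms*, spermine synthase, -0.49 ± 0.23 in MG over GC (0.277), all by edgeR.

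Of 15 genes for the supply of choline and betaine, 1 rose and 1 fell in MG versus GC. *Dmgdh*, which oxidizes the dimethylglycine that *Bhmt* leaves, rose, with 876, 1161 and 1023 CPM in MG, 589, 790 and 782 CPM in A1G and 724, 668 and 619 CPM in GC (log2 fold change 0.61 ± 0.15, edgeR adjusted p = 0.0489). *Pcyt2*, of the ethanolamine branch whose product *Pemt* methylates, fell, with 364, 352 and 368 CPM in MG, 342, 379 and 324 CPM in A1G and 560, 502 and 460 CPM in GC (-0.49 ± 0.11, adjusted p = 0.0372). In A1G over GC *Pcyt2* had -0.54 ± 0.11 (adjusted p = 0.0559). The MG over GC call of *Dmgdh* held in 1 of 9 fits without a library, the fit without A1G replicate 1, and was lost with upper quartile scaling (adjusted p = 0.0611). That of *Pcyt2* held in 3 of 9, without A1G replicate 1, A1G replicate 2 or GC replicate 3, and was also lost with scaling by library totals (-0.35) and on TPM (-0.22). *Etnppl*, a phosphoethanolamine lyase, had 0.88 ± 0.23 in A1G over GC (adjusted p = 0.122), and *Slc44a3*, of a family of choline transporters, -0.77 ± 0.21 in MG over GC (0.0724). None of the 15 was called in A1G versus GC or MG versus A1G, where 5 each had an unadjusted p under 0.05.

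Of 25 folate genes, 0 rose and 1 fell in MG versus GC. This was *Folr2*, a folate receptor known from macrophages, at 3.23, 2.60 and 3.22 CPM in MG, 4.35, 5.07 and 5.08 CPM in A1G and 5.72, 5.74 and 5.40 CPM in GC (-0.90 ± 0.20, edgeR adjusted p = 0.0295). The *Folr2* call was kept in 4 of 9 fits without a library. It was lost with scaling by library totals, in edgeR on the 6 libraries compared and on TPM, at -0.58. The 10 Kupffer cell markers summed to 218–227 TPM in MG, 198–316 TPM in A1G and 182–274 TPM in GC, and none was at 0. In MG versus GC edgeR called 0 of 10 (1 lower at an unadjusted p under 0.05). Their median edgeR log2 fold change was -0.22 there, with 2 of 10 positive, against 0.00 for all genes. The part of these markers in the value of *Folr2* was not tested. *Gldc* and *Amt*, of the glycine cleavage system, had 0.45 ± 0.13 (adjusted p = 0.0864) and 0.42 ± 0.13 (0.113) in MG over GC, and *Slc25a32*, the mitochondrial folate carrier, 0.33 ± 0.10 in MG over A1G (0.294). In A1G versus GC and MG versus A1G none of the 25 was called, with 4 and 3 at an unadjusted p under 0.05. Of 10 cobalamin genes, which serve *Mtr*, none was called in any comparison by edgeR (1, 3 and 3 at an unadjusted p under 0.05 in MG versus GC, A1G versus GC and MG versus A1G). The smallest p were those of *Abcd4*, a lysosomal cobalamin transporter (-0.50 ± 0.17 in A1G over GC, adjusted p = 0.213), *Mmachc*, which processes cobalamin (0.35 ± 0.12 in MG over A1G, 0.373), *Lrp2*, an endocytic receptor (-1.90 ± 0.68 in MG over GC, 0.160), and *Mmab* (0.45 ± 0.17 in MG over A1G, 0.411).

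Of 17 gene IDs of nicotinamide and NAD metabolism, which share a substrate or product with *Nnmt*, 0 rose and 1 fell in MG versus GC. *Haao*, an enzyme of NAD synthesis from tryptophan, fell, with 270.0, 284 and 282 CPM in MG, 270.0, 336 and 272 CPM in A1G and 429, 428 and 398 CPM in GC (-0.58 ± 0.11, edgeR adjusted p = 0.0168, kept in 4 of 9 fits without a library and lost on TPM, at -0.32). All 6 flown mice lay below the GC mice, and A1G over GC was -0.51 ± 0.11 (0.0721). *Qprt*, which turns quinolinate into a nucleotide in the same route, had -0.58 ± 0.16 in MG over GC (0.0782) and *Nadsyn1*, NAD synthetase, -0.68 ± 0.17 in A1G over GC (0.119). *Aox1*, which oxidizes the methylnicotinamide that *Nnmt* makes, had 1.09 ± 0.24 in A1G over GC (0.0668). In A1G versus GC and MG versus A1G none of the 17 was called (4 and 0 at an unadjusted p under 0.05). Both genes of trans-sulfuration missed the threshold, *Cbs* with 0.49 ± 0.14 in MG over GC (adjusted p = 0.0763) and *Cth* with 0.45 ± 0.18 in MG over A1G (0.472).

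Of 12 other small-molecule methyltransferases, which draw on the same SAM, edgeR called 0 in each comparison, with 6, 5 and 0 at an unadjusted p under 0.05 in MG versus GC, A1G versus GC and MG versus A1G, where 18.5%, 14.2% and 8.97% of all genes had one. DESeq2 on 6 libraries called 1 higher and 4 lower in MG versus GC, beside 6.76% of all genes. *Inmt*, which methylates indoles and thioethers, had 565, 473 and 315 CPM in MG, 468, 656 and 642 CPM in A1G and 781, 807 and 651 CPM in GC (-0.73 ± 0.20 in MG over GC, adjusted p = 0.0786). *Icmt*, which methylates prenylated proteins, had 0.46 ± 0.12 in MG over GC (0.0650), *Tpmt*, which methylates thiopurines, -0.74 ± 0.18 in A1G over GC (0.109), and *Hnmt*, which inactivates histamine, -0.62 ± 0.18 (0.152). The median log2 fold change of this list was -0.17 in MG versus GC and -0.14 in A1G versus GC, that of the folate list 0.01 and -0.13, that of the NAD list -0.02 and -0.08, that of the choline list 0.06 and -0.01 and that of the SAM supply list -0.03 and -0.05, against 0.00 for all genes in both. Across the 7 lists, with 92 genes tested, edgeR called 2 higher and 3 lower in MG versus GC, beside 3.33% of all genes. Which direction had more calls depended on scaling and tool. With libraries scaled by their totals only, 6 were higher and 1 lower (542 of all 13193 genes called). DESeq2 on 6 libraries gave 7 and 9 (6.76%), and limma on log2 of TPM plus 1 gave 9 and 0 of 89 genes (645 of all 11623). DESeq2 on 6 libraries called 2 genes higher and 4 lower in A1G versus GC (2.58%) and 1 higher and 0 lower in MG versus A1G (1.35%). On log2 of TPM plus 1, limma called 2 higher in A1G versus GC (80 of 11623) and 0 in MG versus A1G (2 of 11623).

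**Figure D5:**
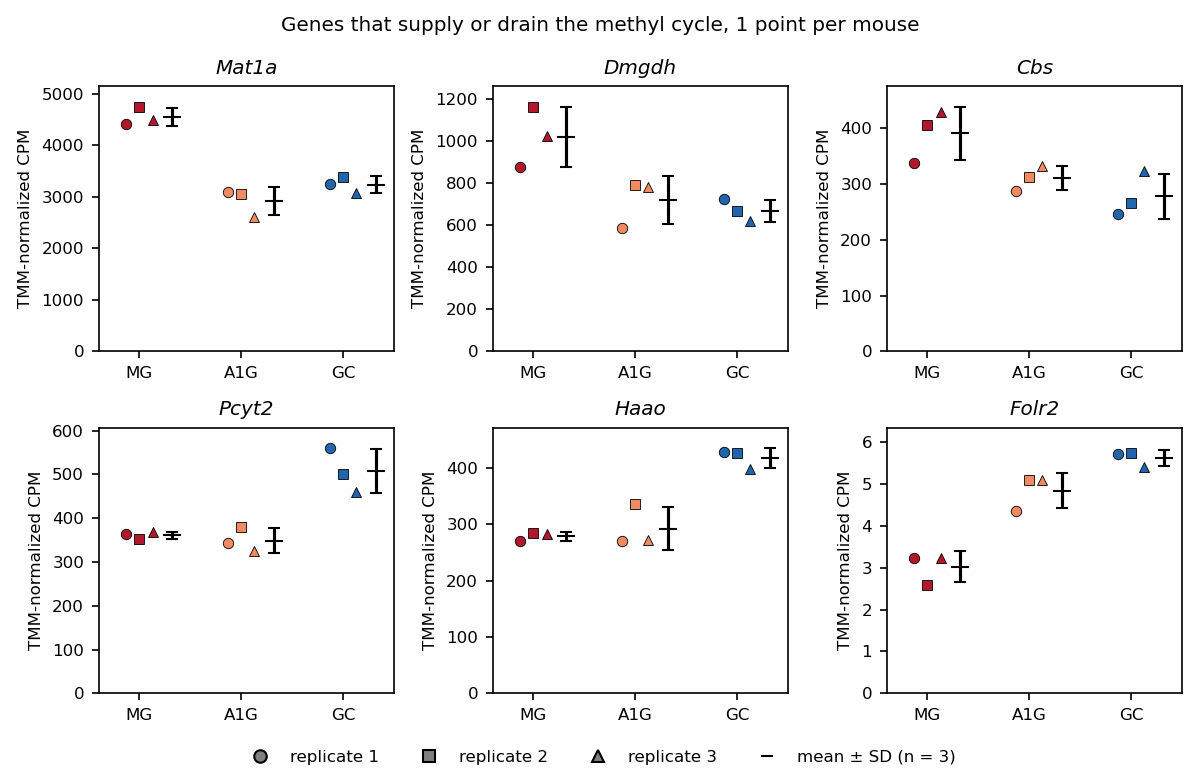
TMM-normalized CPM of 6 genes that supply or drain the methyl cycle, 1 point per mouse, with the mean and SD of each group (n = 3). *Mat1a* is highest in the 3 MG mice, while *Pcyt2* and *Haao* are lower in all 6 flown mice than in the 3 GC mice.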

How the data were processed

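The livers of 9 mice, 3 per group, were analysed with the mouse as the unit. Per the labels, RNA was selected for poly(A), made into stranded libraries and read on a NovaSeq instrument. Per the submitters' notes, reads were cleaned with fastp 0.19.4 and assigned to GRCm38 genes by Salmon 0.9.1, and the annotation release is not given in the sources used here. The authors deposited estimated counts per gene, not whole for 17.1% of values, and TPM, which sum to 1000000 in each library. Their tables of DESeq2 results (log2 fold change, its standard error, the Wald score, p-values and adjusted p-values as deposited) served for gene symbols only. Columns with no sample numbered 0.

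Counts were rounded and tested in R 4.3.3 with edgeR 4.0.16: filterByExpr (minimum count 10, 99.9% of counts kept), TMM scaling, all 9 libraries in 1 quasi-likelihood model, Benjamini-Hochberg over 13193 genes. The standard error is the log2 fold change divided by the square root of F, and intervals are 95%. DESeq2 1.42.0, limma 3.58.1 on log2 TPM (at least 1 TPM in 3 libraries), other scalings and filters, a block for replicate number and leaving out each library were alternatives. The GC mice came from a later ground run and the flown mice from the flight, so run and group cannot be told apart in any comparison with GC. No batch of library preparation or sequencing is stated. The p-values set the difference between groups against the spread between mice of a group. Members had 143 counts or more in every library, and counting error (an SD of at most 0.12 on the log2 scale, for Mtr) was below the spread between mice for all 9. The procedure was tested on simulated counts with the same dispersion for every gene, unlike these data, so power for the members was not tested.

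The 9 members and the lists were chosen with earlier results of these data known. All members are named. Each list names up to 4 genes, called genes by smallest p before others, and the 3 genes nearest in pattern were taken for the member of smallest p because none was called, 1 of which is not reported here. Promoters are RefSeq sequences of GRCm38.p6, and positions are from GENCODE M21. Near-identical copies were alignments of at least 200 bases and 95% identity to GENCODE M21 transcripts.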

Additional observations from a re-analysis of the deposited data

How the results depend on the processing

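The 6 counts of members higher or lower and the count over 3 groups, all 0 in the main fit, stayed 0 under the other scalings, the stricter filter and robust empirical Bayes. The 6 counts by comparison also stayed 0 with limma on TPM and in edgeR on 6 libraries, where the 3 groups were not tested together. Without the filter on low counts they were 1 higher and 1 lower in MG versus GC, 1 lower in A1G versus GC, 1 higher in MG versus A1G and 2 over 3 groups, where 803, 384, 188 and 826 of 20550 genes were called. DESeq2 on 6 libraries gave 1 lower, 1 lower and 1 higher, beside 6.76%, 2.58% and 1.35% of all genes. DESeq2 on 9 libraries gave 1 lower, 2 lower, 1 higher and 2 over 3 groups. With it 887, 412, 185 and 886 of 13193 genes were called. The cause was not tested. Leaving out single libraries gave 0 to 1 over 3 groups (1 for Nnmt without MG replicate 1, adjusted p = 0.0390) and 0 in each comparison. Without MG replicate 1, 152 of 13480 genes were called over 3 groups. Over all genes the calls ran from 181 to 642 in MG versus GC, from 4 to 204 in A1G versus GC and from 0 to 48 in MG versus A1G with a library left out, and from 273 to 887, 1 to 412 and 0 to 188 under the other alternatives.

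The labels do not state that replicate numbers pair the mice, and the main fit used no block. Deviations of same-numbered mice correlated at -0.01 to 0.11, over 0.1 for 1 of 9 pairs. A mouse correlated best with its own number in 14 of 18 choices, each among 3 mice. Over all genes a replicate block gave 509, 145 and 44 calls in MG versus GC, A1G versus GC and MG versus A1G. Without it there were 439, 85 and 10. Whether same-numbered mice share a batch was not tested. With a replicate block, 1 member (Nnmt) was higher in MG versus GC (0.55) and 1 in MG versus A1G (0.80), and 0 were lower. Over 3 groups 1 member passed, beside 438 of 13193 genes. Bhmt in MG versus GC was -0.0706 with the block.

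Of the member log2 fold changes, signs turned with scaling in the settings given here. On log2 of TPM plus 1 (with or without a filter) and plus 0.1, MG versus GC was 0.0415 and 0.0416 for Pemt, 0.0426 and 0.043 for Bhmt2, 0.0798 and 0.1253 for Mtr and 0.1917 and 0.1936 for Mthfd1, A1G versus GC was 0.0452 and 0.0459 for Nnmt, 0.1162 and 0.1163 for Ahcy and 0.1913 and 0.1932 for Mthfd1 (and for Mat2b, not a member, 0.0194 and 0.0204), and MG versus A1G was 0.0349 and 0.0495 for Mtr. With library totals only, which moved the median of all genes by 0.14 in MG versus GC and 0.18 in A1G versus GC, Mthfd1 was 0.0717, 0.0942 and -0.0224 in the 3 comparisons, and with upper quartile scaling Bhmt in MG versus GC was -0.0189. With a library left out, Gnmt in MG versus GC ranged from -0.0128 to 0.20, Bhmt in MG versus GC from -0.20 to 0.20, Mtr in A1G versus GC from -0.0819 to 0.27, Gamt in MG versus A1G from -0.14 to 0.40 and Mthfd1 in MG versus A1G from -0.0214 to 0.0597. The log2 ratio of Bhmt over Mtr in MG versus GC, 0.15, ranged from -0.29 to 0.55, turning without GC replicate 3 (-0.29) or MG replicate 3 (-0.09), and the other 5 ratio differences kept their sign. The cause was not tested. With 3 mice per group, a difference that misses the threshold is not shown to be absent.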
